A study of Mus musculus with 9 samples.

Results

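The nuclear-encoded subunits of the mitochondrial respiratory chain and ATP synthase were examined in mouse brain by bulk RNA sequencing. Members were the protein-coding entries of the count table with the symbol stems Nduf (followed by a, b, c, s or v and a digit), Sdha to Sdhd, Uqcr, Cox4 to Cox8 and Atp5, without the Ndufaf assembly factors. This gave 88 of 56748 genes, of which 84 passed the filter on low counts and were among the 17575 genes tested: 38 of 39 for complex I, 4 of 4 for complex II, 8 of 8 for complex III, 17 of 19 for complex IV and 17 of 18 for ATP synthase. The members without a test were Cox7b2, a testis-type subunit with 0 to 8 counts per library, and Cox8c, Ndufb11b and a second entry of the symbol Atp5o, which had 0 counts in every library. Cox5b-ps, annotated as protein-coding although its name marks a pseudogene of Cox5b, was kept as the rule has it. Older symbols of the table are used here for ATP synthase, such as Atp5b.

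The series compared wild-type mice, 5xFAD mice, and 5xFAD/Cd5l tg/wt mice, which add a mouse Cd5l transgene driven by human PDGF-B promoter sequence, with 3 libraries per genotype, each titled as a separate mouse. All animals were 7 months old, and total RNA came from the brain after removal of the cerebellum, so that every level is a mean over all cell types of that tissue. 5xFAD mice carry human amyloid precursor protein and presenilin transgenes with familial Alzheimer mutations, driven by the neuronal Thy1 promoter, and both groups with the 5xFAD label share them. CD5L is a protein that macrophages secrete. Sex is not given in the labels.

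The libraries held 14575416 to 17865150 counts. The Cd5l counts went with the labels: libraries of the 5xFAD/Cd5l tg/wt group had 2553, 2822 and 3551 Cd5l counts, and the 6 others together had 1. Neuronal markers summed to between 7921 and 8722 CPM (counts scaled by library size) in all 9 libraries. Some libraries stood apart in region or cell type markers. The summed level of cerebellar granule cell and hindbrain markers was 897 CPM in wild-type library 3 against 56.2 to 226 CPM in the other libraries. Lowest in this sum were 5xFAD/Cd5l tg/wt libraries 2 and 3, at 56.2 and 71.5 CPM, with 146 CPM or more elsewhere. Oligodendrocyte markers summed to 4706 CPM in 5xFAD/Cd5l tg/wt library 2 against 6445 to 8287 CPM elsewhere.

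The respiratory chain passes electrons from NADH through complex I, or from succinate through complex II, to complex III and then through cytochrome c to oxygen at complex IV. Complexes I, III and IV pump protons across the inner mitochondrial membrane, and ATP synthase uses the resulting gradient to make ATP, on which the ion pumping and synaptic work of neurons depends. Complex II is built wholly from nuclear genes, whereas the others combine nuclear-encoded subunits with a few core subunits made from mitochondrial DNA, so that both genomes supply parts of the same complexes. Nuclear respiratory factor 1 (NRF-1) is a transcription factor known to bind the promoters of many of these nuclear genes.

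Promoter sequences of members are shown here for the motifs they hold. In 5xFAD/Cd5l tg/wt against 5xFAD, described further on, 78 of 84 members were below and 6 above zero, and the medians of all 5 complexes were negative. Whether the motifs have a part in these differences was not tested. A promoter was taken as 250 bases before to 50 bases after the start of a gene in RefSeq (build GRCm38.p6), and 68 of the 84 tested members had one in the table. The palindromic NRF-1 site, which is GCGCA followed by its reverse complement and was searched on both strands like the other motifs, was present in 5 of these 68 promoters (7.35%), against 1.47% of the promoters of 17491 protein-coding genes. The shorter motif TGCGCA is not contained in the full site but can overlap it. It was present in 18 of 68 (26.5%) against 1924 of the 17491. The sequence AAGATGGCG, a match to the YY1 motif, was in 10.3% of member promoters against 2.14%, while CCGGAAGT, the motif of ETS factors, was in 7.35% against 5.69% and the GC box GGGGCGGGG in 16.2% against 17.3%. These are counts of letters in a window and not evidence of binding.

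The first pair below are complex I genes that fell in the comparison with the transgene and hold TGCGCA upstream of the start. The second pair are genes of complex IV and ATP synthase with the full site. Each line gives the 250 bases upstream of the start, 5′ to 3′ on the strand of the gene, with full NRF-1 sites and TGCGCA in capitals.
Ndufb4 (chr16:37654369-37654618, minus strand): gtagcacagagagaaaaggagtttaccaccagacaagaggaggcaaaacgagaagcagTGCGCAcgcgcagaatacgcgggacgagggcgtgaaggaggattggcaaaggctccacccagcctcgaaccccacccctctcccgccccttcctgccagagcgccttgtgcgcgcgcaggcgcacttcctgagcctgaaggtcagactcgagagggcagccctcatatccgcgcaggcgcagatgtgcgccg
Ndufb6 (chr4:40279422-40279671, minus strand): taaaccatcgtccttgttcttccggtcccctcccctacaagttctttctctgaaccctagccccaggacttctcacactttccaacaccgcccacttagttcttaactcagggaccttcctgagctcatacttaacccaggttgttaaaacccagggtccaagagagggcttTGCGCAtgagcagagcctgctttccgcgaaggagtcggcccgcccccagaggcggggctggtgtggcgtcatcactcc
Cox6a1 (chr5:115348959-115349208, minus strand): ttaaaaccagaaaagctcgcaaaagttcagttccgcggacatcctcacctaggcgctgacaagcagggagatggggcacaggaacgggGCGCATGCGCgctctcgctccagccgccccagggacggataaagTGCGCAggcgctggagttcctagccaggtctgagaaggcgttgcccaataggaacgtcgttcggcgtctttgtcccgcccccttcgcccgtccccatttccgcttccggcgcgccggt
Atp5g2 (chr15:102671048-102671297, minus strand): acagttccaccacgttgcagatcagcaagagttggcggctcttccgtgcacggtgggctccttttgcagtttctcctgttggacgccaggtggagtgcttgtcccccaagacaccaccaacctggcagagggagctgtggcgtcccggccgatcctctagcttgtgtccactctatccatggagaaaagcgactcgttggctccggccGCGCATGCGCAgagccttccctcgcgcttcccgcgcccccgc
Of the 6 members that passed the test in that comparison, 5 had a promoter in the table. Ndufb4, Ndufb6 and Ndufb8 held TGCGCA, in Ndufb8 after the start, and none of the 5 held the full site. Cox6a1 carries the full site and a separate TGCGCA, whereas in Atp5g2 the sequence TGCGCA overlaps the full site.

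Members were among the more abundant transcripts of the tissue. Their median level over 9 libraries was 50.9 FPKM (CPM divided by the gene length of the table in kilobases), against 5.33 FPKM for the 14558 tested protein-coding genes. By the table's gene lengths, complex IV held the 3 members with the highest levels, Cox8a at 326 ± 19.8 FPKM (SD over 9 libraries), Cox6a1 at 305 ± 23.4 FPKM and Cox4i1 at 305 ± 23.6 FPKM, which on these lengths do not differ beyond that spread. In ATP synthase the catalytic head subunits led, with Atp5a1 (the alpha subunit) at 274 ± 12.7 FPKM and Atp5b (the beta subunit) at 263 ± 15.1 FPKM, and Atp5l, the membrane subunit g, was lowest at 11.7 FPKM. Ndufa4 at 104 FPKM was the highest of the complex I names, although its protein is now placed in complex IV, and Ndufc2, Ndufa8 and Ndufa1 were at 103 to 104 FPKM. Sdha, the flavoprotein of succinate dehydrogenase, stood at 105 FPKM and the membrane anchor Sdhc at 26.6 FPKM. In complex III, Uqcrh, the hinge protein, was at 101 FPKM and Uqcrq at 39.2 FPKM. Levels per length depend on the length used: the table gives Atp5l a length of 6443 bases, its principal transcript in an older annotation (GENCODE vM21) has 544 bases, and with that length it stood at 139 FPKM. The order at the top changes too: with principal lengths Cox4i1 was at 617 FPKM and Atp5b at 582 FPKM, above Cox6a1 at 375, Cox8a at 367 and Atp5a1 at 347 FPKM, and Atp5g1 was the lowest of ATP synthase at 19.98 FPKM.

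**Figure D1:**
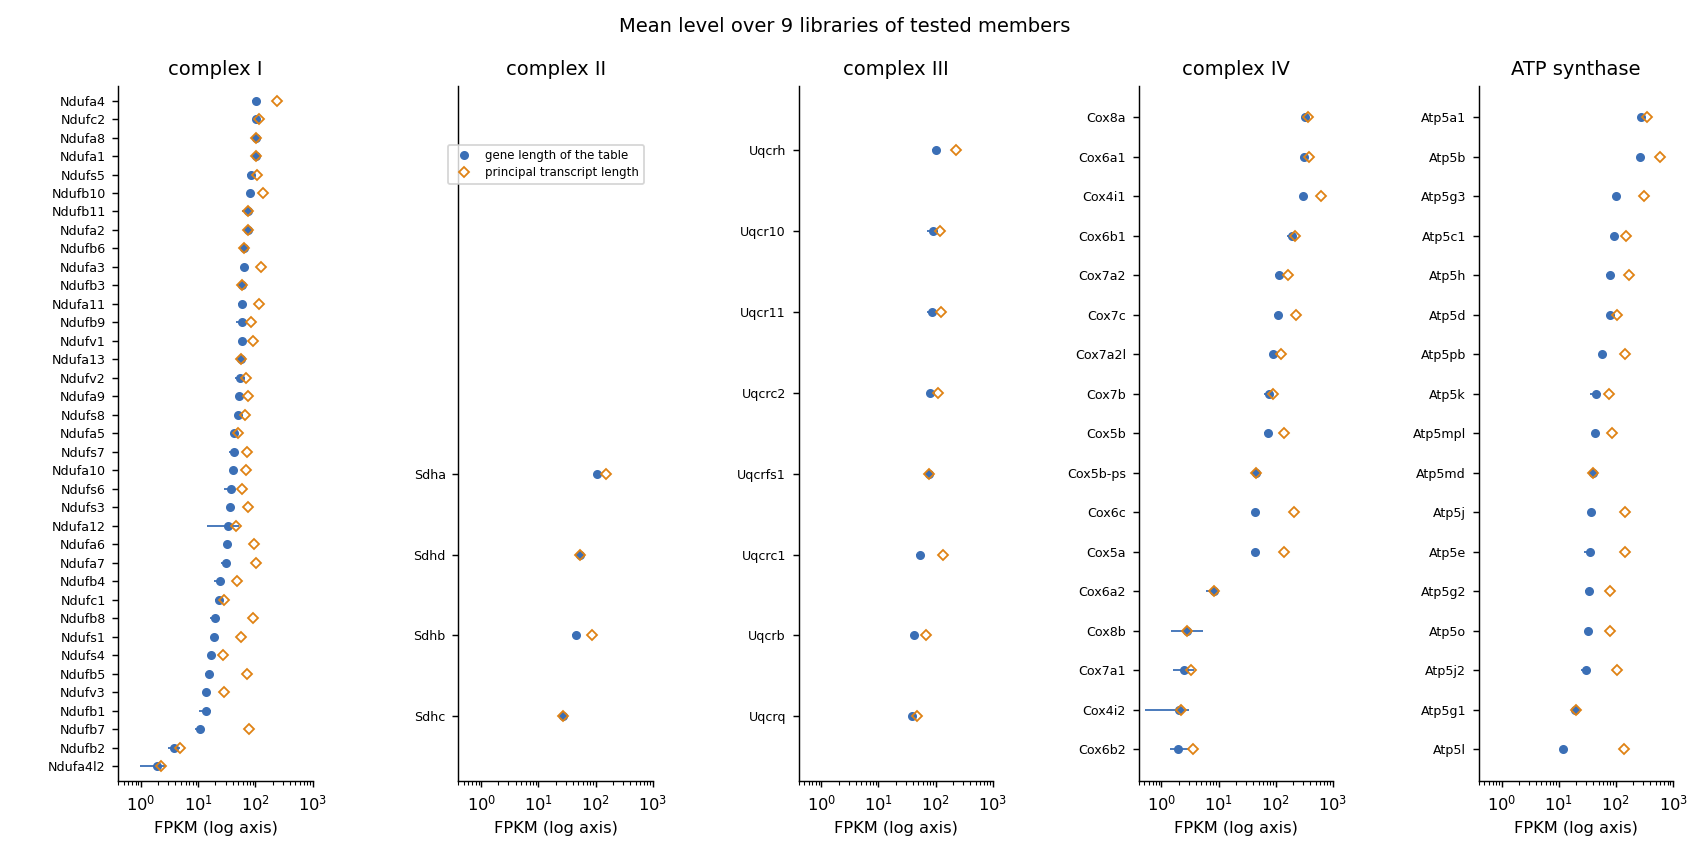
Mean level of tested members over 9 libraries, by complex, in FPKM on a log axis. Filled points use the gene length of the table, with lines from the lowest to the highest library, and open diamonds use the principal transcript length of GENCODE vM21 (not available for Ndufb1). Cox8a, Cox6a1 and Cox4i1 lie near 300 FPKM, and the low tail holds isoforms such as Cox6b2 and Ndufa4l2, both at 1.92 FPKM.

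Several subunits exist as isoforms encoded by separate genes. In the Cox4, Cox6a, Cox6b, Cox7b, Cox8 and Ndufa4 families, 1 gene made up at least 96.6% of the summed FPKM in every library. In Cox7a, Cox5b and the c subunit the level was shared between genes. Cox4i2, the isoform linked to lung and low oxygen, made up 0.175% to 1.03% of the Cox4 level over the 9 libraries. The muscle isoforms were also minor: Cox6a2 2.11% to 3.39%, Cox7a1 0.832% to 1.90% and Cox8b 0.422% to 1.64% of their families. Cox7a2 at 50.5% to 58.8% and Cox7a2l, a factor of supercomplex assembly, at 40.2% to 48.6% shared the Cox7a level. Cox6b2, known from testis, supplied 0.696% to 1.60% of Cox6b, Cox7b2 0% to 1.14% of Cox7b, and Ndufa4l2, a target of the hypoxia response, 0.833% to 2.54% of Ndufa4 and Ndufa4l2 together. The c subunit of the ATP synthase rotor is encoded by 3 genes with the same mature protein, and their shares kept within narrow ranges: Atp5g3 64.8% to 66.6%, Atp5g2 20.4% to 22.9% and Atp5g1 11.3% to 13.4%. Cox5b-ps took 36.2% to 39.3% of the Cox5b and Cox5b-ps level in all 9 libraries. Reads of near-identical copies can be assigned to either gene, and how the authors treated them is not given in the sources used here, so these 2 values are uncertain. All of these shares use the table's gene lengths. With principal transcript lengths Atp5g3 made up 75.01% to 76.72%, Atp5g2 17.91% to 20.07% and Atp5g1 4.47% to 5.37% of the c subunit level. In CPM, which use no length, Atp5g3 was at a mean of 222, Atp5g1 at 94.2 and Atp5g2 at 56.5. The order of Atp5g1 and Atp5g2 thus rests on the lengths, 4912 and 1675 bases in the table. On the same lengths Cox4i2 was at 0.0932% to 0.549%, Cox6b2 at 1.15% to 2.62%, Ndufa4l2 at 0.433% to 1.33% and Cox5b-ps at 23.7% to 26.1%, and the main gene of each family stayed the same.

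In 5xFAD against wild-type brain, the subunits differed little. The 88 members together took 1.00% ± 0.0120 (SD, n = 3) of all counts in wild-type and 1.01% ± 0.0146 (SD, n = 3) in 5xFAD libraries. No member passed at an adjusted p under 0.05 in edgeR's quasi-likelihood test, where 3.50% of all tested genes did (2.44% lower, 1.06% higher), and DESeq2 and limma-voom called 0 as well. At an unadjusted p under 0.05 there were 4 of 84 members, 3 higher and 1 lower in 5xFAD, against 16.3% of all genes. All 3 5xFAD libraries lay above all wild-type libraries in 15 members (background 10.4%) and below them in 10 (background 13.9%). The median log2 fold change was 0.03 over members and -0.01 over all tested genes, with 51 members above and 33 below zero. This direction turned with an offset for gene length, which gave a median of -0.021 with 38 above and 46 below zero, and other protein-coding genes ran from a median of 0.07 in the shortest of 8 length bins to -0.06 in the longest. Microglia markers rose in 9 of 9 genes in this comparison, from a sum of 361 to 400 CPM to one of 686 to 875 CPM, and their part in the values was not tested.

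Of those 4 members, the ATP synthase subunit e gene Atp5k was the lower one, with 31.8, 33.6 and 29.7 CPM in wild-type and 27.5, 26.8 and 25.6 CPM in 5xFAD libraries. The log2 fold change was -0.25 ± 0.10 (SE, edgeR adjusted p = 0.222), and the groups did not overlap. Cox6a1, the form of subunit VIa found in most tissues, stood at 213, 215 and 199 CPM in wild-type and at 231, 239 and 231 CPM in 5xFAD, and its muscle-type counterpart Cox6a2 at 5.29, 4.62 and 4.15 CPM against 5.49, 6.12 and 7.03 CPM. Both were higher in all 3 5xFAD libraries, by 0.16 ± 0.06 and 0.40 ± 0.17 on the log2 scale (edgeR adjusted p = 0.225 and 0.268). Ndufa1, a small membrane subunit of complex I, differed by 0.19 ± 0.09. Next by p came Cox4i1 at 0.13 ± 0.06, the complex I core subunit Ndufs1 at -0.15 ± 0.07, the membrane-arm subunit Ndufb4 at 0.15 ± 0.08 and Ndufa4l2 at -0.55 ± 0.29, and none of them passed the test.

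With the Cd5l transgene on the 5xFAD background, subunit transcripts lay lower across all 5 complexes. The members' share of all counts was 0.928%, 0.864% and 0.930% in the 3 libraries, a mean of 0.907% ± 0.0373 (SD, n = 3), below every library of the other genotypes. In 5xFAD/Cd5l tg/wt against 5xFAD, 6 of 84 members fell and 0 rose at an adjusted p under 0.05 (edgeR), against 6.23% of all genes called, 0.888% lower and 5.34% higher. The members that fell were Ndufb4, Ndufb8, Ndufb6 and Ndufa7 of complex I, Uqcr10 of complex III and Cox4i1 of complex IV. At an unadjusted p under 0.05, 37 members were lower (background 8.01%, or 22.3% in either direction) and 0 higher, and in 45 members all 3 5xFAD/Cd5l tg/wt libraries lay below all 3 5xFAD libraries (background 12.1%), with 0 members above (background 16.6%). The log2 fold change was negative in 78 of 84 members, against 49.0% of all genes. Its median was -0.17 in members, which corresponds to -10.9%, and 0.01 in all genes. Members moved together over the 9 libraries, so these counts are not of independent genes. The correlation of a member with the mean of the others had a median of 0.75 and was over 0.7 in 48 of 84, differences between genotypes included. In bulk tissue, fewer cells rich in these transcripts and less of the transcripts per cell cannot be told apart.

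The number of members called rests on few libraries. It was 0 without 5xFAD replicate 2, 1 without 5xFAD replicate 1, 1 without 5xFAD/Cd5l tg/wt replicate 2 and 3 without wild-type replicate 1, and it was 11 without wild-type replicate 3 and 12 without 5xFAD/Cd5l tg/wt replicate 1. The number of all genes called lower, 156 in the fit of 9 libraries, moved in the same direction in these fits: it was 13, 14, 37 and 129 in the first 4 and 273 and 693 in the others, so the swing is not particular to the members. The members' median stayed between -0.21 and -0.13 over the 9 fits that each left out 1 library, with 75 to 80 members negative. Without the 3 libraries that stand apart in regional markers (wild-type 3, 5xFAD/Cd5l tg/wt 2 and 3), 5 members were called, 1 of them among the 6, and the median was -0.15.

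**Figure D2:**
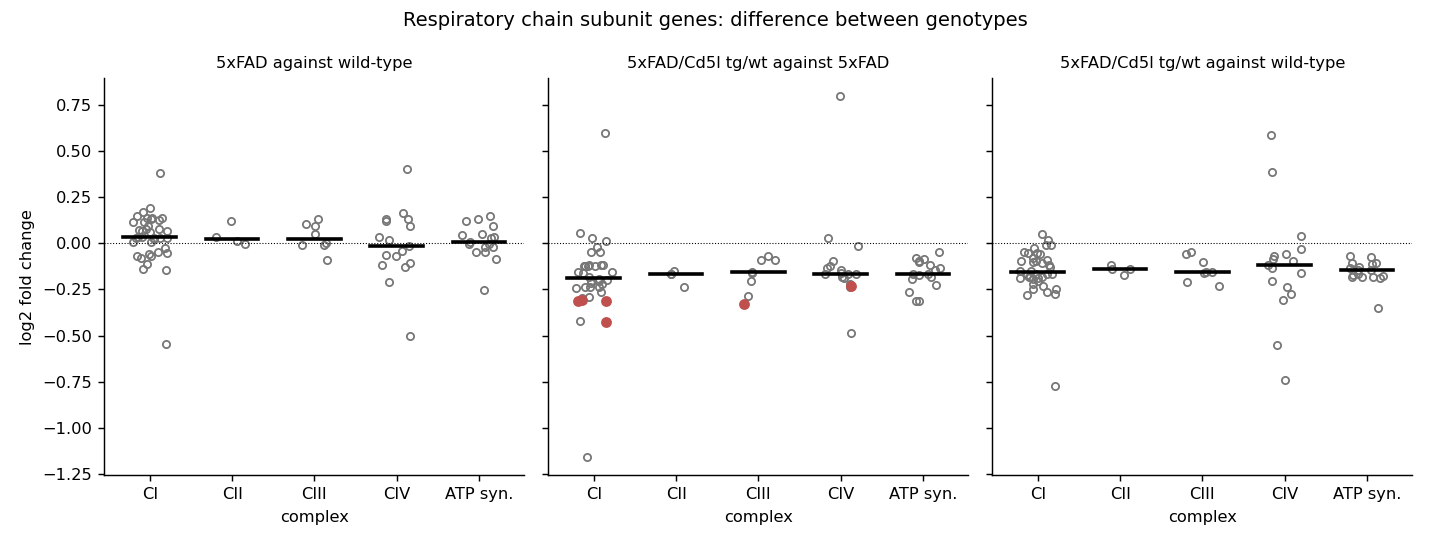
Log2 fold change of each of the 84 tested members in the 3 comparisons, by complex. Each point is 1 gene, filled red where the adjusted p was under 0.05 (edgeR), and the black line is the median of the complex. In 5xFAD/Cd5l tg/wt against 5xFAD the medians of the 5 complexes lie between -0.19 and -0.16 and 6 members are filled, while the other panels have none.

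The median difference was of like size in each complex. Median log2 fold changes were -0.19 in complex I (34 of 38 members negative, 4 called), -0.17 in complex II (4 of 4 negative, 0 called), -0.16 in complex III (8 of 8 negative, 1 called), -0.17 in complex IV (15 of 17 negative, 1 called) and -0.17 in ATP synthase (17 of 17 negative, 0 called). At an unadjusted p under 0.05 there were 20, 2, 4, 3 and 8 members in the same order, all lower (background 8.01% lower). Free of overlap, with the transgenic libraries below, were 23, 2, 5, 5 and 10 members (background 12.1%). Complex IV, with 3 and 5 of 17, had the smallest share in both counts. In complex II and ATP synthase DESeq2 called 0 and 5 members and limma-voom 0 and 1. Summed over its members, complex I stood at 2804, 2899 and 2772 CPM in 5xFAD and at 2532, 2377 and 2573 CPM with the transgene. ATP synthase stood at 3703, 3780 and 3660 CPM in 5xFAD and at 3462, 3314 and 3390 CPM with the transgene, and in neither complex did the groups overlap. The summed CPM was lower by 11.7% in complex I, 10.6% in complex II, 9.30% in complex III, 10.6% in complex IV and 8.77% in ATP synthase, as differences of the means of 3 libraries.

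Complex I, the NADH dehydrogenase, held 4 of the 6 called members. Ndufb4, an accessory subunit of the proton-pumping membrane arm (chr16:37467532-37474815, minus strand, GRCm39), was at 51.6, 53.0 and 50.2 CPM in 5xFAD and 41.7, 37.4 and 36.3 CPM in 5xFAD/Cd5l tg/wt, with 47.6, 45.1 and 47.2 CPM in wild-type. The transgenic libraries lay below all 6 others, and the log2 fold change against 5xFAD was -0.42 ± 0.08 (SE, edgeR adjusted p = 0.00761), a level 25.5% lower. Its call held in 21 of 23 alternative fits, more often than that of the other 5 called members (11 to 16 of 23). Ndufb8, of the same arm (chr19:44537011-44543879, minus strand), was at 66.1, 69.0 and 61.4 CPM in 5xFAD and 53.4, 51.1 and 53.5 CPM with the transgene (-0.31 ± 0.08, edgeR adjusted p = 0.0332). Wild-type libraries were at 66.6, 66.3 and 58.9 CPM, close to 5xFAD. Ndufb6 (chr4:40270591-40279421, minus strand), likewise of the membrane arm, went from 46.7, 49.3 and 43.0 CPM in 5xFAD to 36.6, 36.4 and 39.0 CPM (-0.31 ± 0.08, edgeR adjusted p = 0.0354), with 43.7, 44.9 and 42.0 CPM in wild-type. Ndufa7, an accessory subunit of the arm that reaches into the matrix (chr17:34043546-34057291, plus strand), was at 55.5, 63.2 and 62.4 CPM in 5xFAD and 49.5, 45.4 and 51.3 CPM with the transgene (-0.31 ± 0.08, edgeR adjusted p = 0.0414). Its wild-type libraries, at 55.3, 57.6 and 53.2 CPM, also lay above the transgenic ones.

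The remaining complex I members were mostly lower without passing the test. Ndufb11, another membrane-arm subunit, was at 68.2, 75.6 and 71.3 CPM in 5xFAD and 59.1, 53.8 and 63.3 CPM with the transgene (-0.29 ± 0.08, edgeR adjusted p = 0.0532). Ndufb3 and Ndufb10 of the same arm differed by -0.26 ± 0.08 and -0.23 ± 0.07, again without overlap of the libraries. Core subunits varied among themselves. Ndufv1, which binds NADH and the flavin, differed by -0.022 ± 0.07, the iron-sulfur subunit Ndufs1 by 0.055 ± 0.07 and Ndufs3 by 0.03 ± 0.07, whereas the iron-sulfur subunits Ndufv2, Ndufs7 and Ndufs8 differed by -0.30 ± 0.09, -0.20 ± 0.09 and -0.12 ± 0.08, the first 2 without overlap. For Ndufs1 the libraries were at 133, 149 and 150 CPM in 5xFAD and 150, 153 and 146 CPM with the transgene, which overlap. Whether accessory and core subunits differ from each other was not tested. The 4 positive members were Ndufs1, Ndufs3, Ndufv3 (0.012 ± 0.07) and Ndufa4l2 (0.60 ± 0.29, edgeR adjusted p = 0.245), the last at 19 to 50 counts per library over the 6 compared libraries.

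In complex II, all 4 genes of succinate dehydrogenase were lower with the transgene and none passed. The anchor gene Sdhd was at 72.6, 76.7 and 67.7 CPM in 5xFAD and 65.8, 59.2 and 59.0 CPM with the transgene, without overlap (-0.24 ± 0.08, edgeR adjusted p = 0.0890). Sdha was at 449, 446 and 458 CPM in 5xFAD and 446, 391 and 383 CPM with the transgene, so that transgenic library 1 reached the 5xFAD range. In complex III, Uqcr10, a small accessory subunit (chr11:4651973-4654342, minus strand), was at 55.0, 61.0 and 55.8 CPM in 5xFAD and 43.6, 41.9 and 51.3 CPM with the transgene. It fell by 0.33 on the log2 scale (SE 0.09, edgeR adjusted p = 0.0454), and wild-type libraries stood at 54.9, 53.6 and 52.4 CPM. The Rieske iron-sulfur protein gene Uqcrfs1 differed by -0.20 ± 0.07, and the core protein genes Uqcrc1 and Uqcrc2 by -0.07 ± 0.07 and -0.09 ± 0.06.

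In complex IV, cytochrome c oxidase, Cox4i1 encodes a regulatory subunit that binds ATP (chr8:121394961-121400946, plus strand). It stood at 522, 509 and 507 CPM in 5xFAD and at 447, 417 and 447 CPM with the transgene, and it fell by 0.23 on the log2 scale (SE 0.06, edgeR adjusted p = 0.0464). Wild-type libraries, at 462, 496 and 445 CPM, overlapped the transgenic ones, with a log2 fold change of -0.10 ± 0.06 between these groups. Cox6a1 followed the same order, at 231, 239 and 231 CPM in 5xFAD, 192, 198 and 211 CPM with the transgene and 213, 215 and 199 CPM in wild-type (-0.22 ± 0.06 against 5xFAD, edgeR adjusted p = 0.0604). The low isoforms had wide errors: Cox8b differed by 0.79 ± 0.42 on 8 to 34 counts per library, Cox7a1 by -0.48 ± 0.36 and Cox4i2 by -0.24 ± 0.42, with 6, 21 and 34 counts in the transgenic libraries. Cox6c was the other positive member, at 0.03 ± 0.09.

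All 17 tested ATP synthase genes were lower with the transgene than in 5xFAD, and none passed the test. Atp5j2, the membrane subunit f, was at 109, 110 and 110 CPM in 5xFAD and 84.3, 80.4 and 99.8 CPM with the transgene (-0.31 ± 0.09, edgeR adjusted p = 0.0543). Atp5e, the epsilon subunit of the rotor stalk, went from 65.3, 66.4 and 70.0 CPM to 49.5, 50.6 and 61.9 CPM (-0.31 ± 0.09, edgeR adjusted p = 0.0568). In both, transgenic library 3 lay above libraries 1 and 2 but still below all 5xFAD libraries. Atp5pb, a stalk subunit, differed by -0.22 ± 0.07. The abundant catalytic subunits differed less, Atp5a1 by -0.09 ± 0.06 and Atp5b by -0.10 ± 0.05, but the libraries of Atp5b did not overlap: they were at 1109, 1133 and 1110 CPM in 5xFAD and at 1064, 1048 and 1018 CPM with the transgene.

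**Figure D3:**
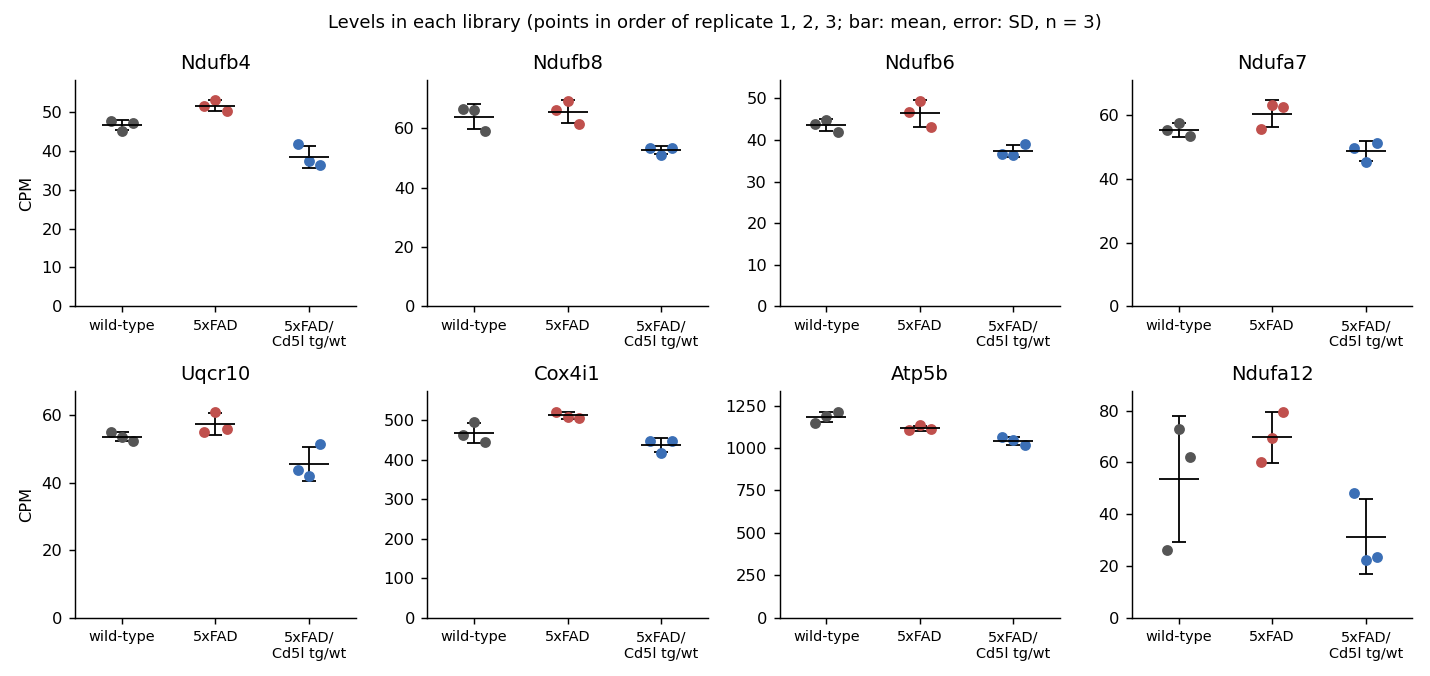
Level in CPM of 8 members in each library, by genotype. Points are the 3 libraries of a genotype in order of replicate, and the bar and whiskers are their mean and SD. In Ndufb4, Ndufb8, Ndufb6, Ndufa7, Uqcr10 and Atp5b the 5xFAD/Cd5l tg/wt points lie below all other points, Cox4i1 overlaps wild-type, and Ndufa12 varies widely within genotypes.

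Other measurements moved with the same comparison, and their part in the result was not tested. The 7 nuclear-retained RNAs, Malat1 among them, summed to 1492 to 1857 CPM in 5xFAD, 3950 to 5772 CPM with the transgene and 3588 to 4697 CPM in wild-type. All 7 passed as higher with the transgene than in 5xFAD and as lower in 5xFAD than in wild-type, so these groups differ in the share of such RNA, while wild-type and transgenic libraries overlap in it. Oligodendrocyte markers, Mbp among them, summed to 6663 to 7526 CPM in 5xFAD and 4706 to 7071 CPM with the transgene, with all 7 negative, 2 at an unadjusted p under 0.05 and 0 called by edgeR, DESeq2 or limma-voom. Cerebellar granule cell and hindbrain markers were negative in all 9 tested genes. Their sums were 148 to 189 CPM in 5xFAD and 166, 56.2 and 71.5 CPM in transgenic libraries 1, 2 and 3. Of the 9 genes, 2 were lower at an unadjusted p under 0.05, and edgeR, DESeq2 and limma-voom called 0. Of 7 endothelial and mural markers, 6 rose with the transgene, from a sum of 177 to 213 CPM to one of 306 to 334 CPM. Neuron markers were called in 0 of 10 genes by edgeR, with 4 at an unadjusted p under 0.05 (2 higher, 2 lower) and 1 called each by DESeq2 and limma-voom. Of all tested genes, 22.3% had such a p with the transgene against 5xFAD (8.01% lower), and 5.34% were called higher.

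Gene length also moved with this comparison. Members are short, with a median gene length of 1522.5 bases against 4520 bases for tested protein-coding genes, and 55 of 84 fall in the shortest of 8 length bins. In 5xFAD/Cd5l tg/wt against 5xFAD, the median log2 fold change of other protein-coding genes was -0.09 in the shortest bin (1765 genes) and 0.07 in the longest (1820 genes), and that of the 55 members in the shortest bin was -0.17. With a length trend fitted per library and taken out as an offset, the members' median was -0.11, 74 of 84 were negative, and 2 were called, Ndufb4 and Ndufb8.

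**Figure D4:**
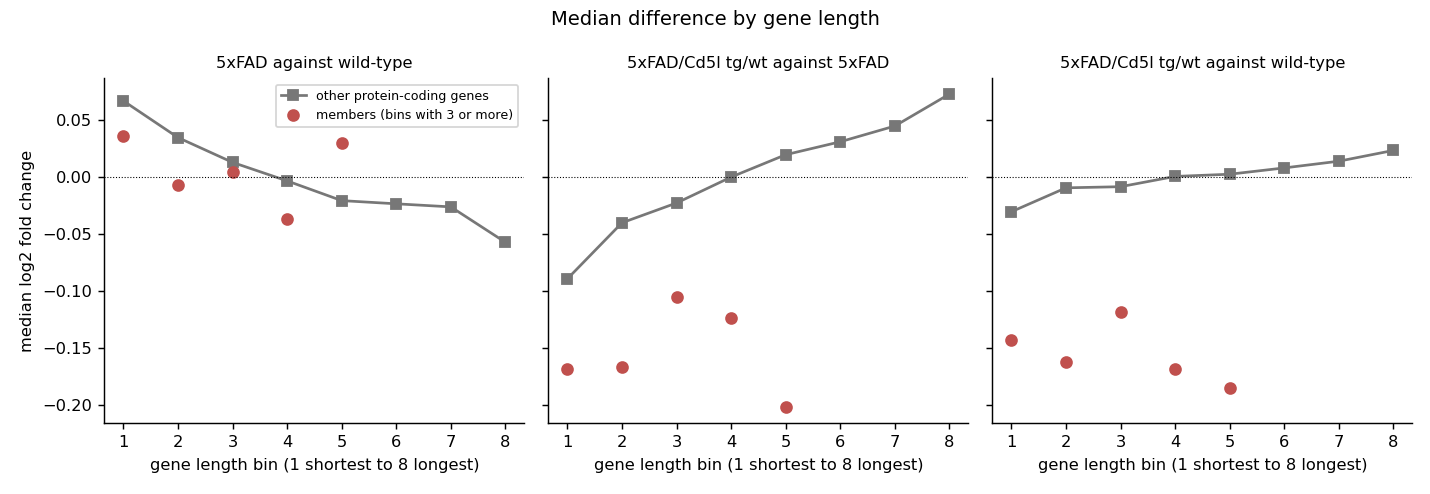
Median log2 fold change in 8 bins of gene length, from shortest to longest, for protein-coding genes outside the list (squares) and for members (circles, only bins with 3 or more). In 5xFAD/Cd5l tg/wt against 5xFAD the squares run from -0.09 to 0.07 and the members' medians lie between -0.20 and -0.11, and against wild-type the squares run from -0.03 to 0.02.

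Against wild-type brain, 5xFAD/Cd5l tg/wt subunits also lay lower, but no member passed. This comparison shares the transgenic libraries with the one before and is not an independent repeat of it. edgeR called 0 of 84 members, against 1.58% of all genes (0.199% lower, 1.38% higher), limma-voom called 0 and DESeq2 called 1, Atp5b. At an unadjusted p under 0.05, 26 members were lower (background 5.58%, or 12.4% in either direction) and 1 higher. All transgenic libraries lay below all wild-type libraries in 31 members (background 6.53%) and above them in 1 (background 7.93%). The median log2 fold change was -0.15 in members and 0.0008 in all genes, with 79 of 84 negative. By length, other protein-coding genes of the shortest bin had a median of -0.03 here, and the members' median with length offsets was -0.14. Without 5xFAD/Cd5l tg/wt replicate 2 the members' median was -0.10 and 13 were lower at an unadjusted p under 0.05, without wild-type replicate 2 there were 14, and without 5xFAD/Cd5l tg/wt replicate 1 Ndufb4 was called (edgeR adjusted p = 0.0300).

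Markers of other cell types also moved against wild-type, and their part in the members' values was not tested. All 7 oligodendrocyte markers were negative, with a median log2 fold change of -0.31, and their sum was 7374 to 8287 CPM in wild-type. At an unadjusted p under 0.05 there were 5 of them (background 5.58% lower), with 0 called by edgeR and limma-voom and 1 by DESeq2. Microglia markers rose in 8 of 9 genes (median 1.25), to a sum of 804 to 929 CPM. Among 8 astrocyte markers Gfap rose and the other 7 were not called. Cerebellar granule cell and hindbrain markers were negative in 9 of 9 tested genes, with sums of 146 to 897 CPM in wild-type and 56.2 to 166 CPM with the transgene. Of these genes, edgeR called 2 as lower (Cbln3 and Slc6a5), DESeq2 called 4 and limma-voom 0. Cbln3 was at 18.5, 2.98 and 192 CPM in the wild-type libraries, so its mean there rests mostly on library 3.

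The members with the smallest p in this comparison, given next, were lower with the transgene and free of overlap. Ndufb8 and Ndufb4 had log2 fold changes of -0.28 ± 0.08 each (edgeR adjusted p = 0.124 and 0.125). Atp5k, at 31.8, 33.6 and 29.7 CPM in wild-type and 25.8, 21.6 and 27.1 CPM with the transgene, differed by -0.35 ± 0.10, and its 5xFAD libraries, at 25.6 to 27.5 CPM, overlapped the transgenic ones. For Atp5b the libraries were at 1150, 1191 and 1210 CPM in wild-type, above both other groups (-0.18 ± 0.05, edgeR adjusted p = 0.144). Ndufb11 differed by -0.26 ± 0.08, the c subunit gene Atp5g3 by -0.19 ± 0.06 and Cox7b by -0.27 ± 0.09. Cox6a2 was the 1 member higher in all 3 libraries, at 5.93, 6.74 and 5.76 CPM with the transgene against 4.15 to 5.29 CPM in wild-type (0.39 ± 0.17, edgeR adjusted p = 0.388).

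Levels in 5xFAD above wild-type and above the transgenic group, in every library, were seen in Atp5d, Atp5e, Atp5j2, Cox4i1, Cox6a1, Cox7c, Ndufa9, Ndufb10, Ndufb3, Ndufb4, Uqcr10 and Uqcrq. These are 12 of 84 members, against 593 of the 17575 tested genes (3.37%). Both comparisons share the 5xFAD libraries, so the direction of the pair is not independent. Cox7c, a small subunit of complex IV, shows the size: it was at 117, 117 and 127 CPM in wild-type, 135, 129 and 129 CPM in 5xFAD and 115, 107 and 123 CPM with the transgene. Its log2 fold changes were 0.12 ± 0.07 and -0.19 ± 0.07, and it passed in neither comparison.

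Ndufa12, an accessory subunit of complex I, varied more than other members and is described after its values were seen (chr10:94034582-94057305, plus strand). It was at 26.0, 72.8 and 62.0 CPM in wild-type, 60.0, 69.6 and 79.6 CPM in 5xFAD and 48.1, 22.4 and 23.6 CPM with the transgene. The lowest values were thus found in wild-type library 1 and transgenic libraries 2 and 3, and the highest library stood 3.56 times above the lowest. Of the 6 tested genes nearest to it on the chromosome, 3 on each side, none differed by more than 1.65 times between its highest and lowest library. Against 5xFAD the transgenic libraries did not overlap, with a log2 fold change of -1.16 ± 0.34 (edgeR adjusted p = 0.0628). It passed when only the 6 compared libraries were fitted (edgeR adjusted p = 0.0211), without wild-type replicate 1 (0.0196) and without 5xFAD/Cd5l tg/wt replicate 1 (0.00674). Over the 9 fits that each left out 1 library, the adjusted p reached 0.202. Without the filter on low counts the adjusted p was 4.12e-28 at a log2 fold change of -1.17. The fold change hardly moved, so that p rests on a smaller estimated error and is not taken as support. The same fit gave 2.46e-12 against wild-type, where the libraries overlap. Without the 3 libraries that stand apart in regional markers the log2 fold change was -0.55. Among the tested members only Cox4i2, at 6 to 42 counts per library, and Cox8b, at 8 to 34, had a larger ratio of highest to lowest library.

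Other genes of the pathway lay outside the rule. The 13 subunits made from mitochondrial DNA were called in 0 cases in each comparison, by edgeR, DESeq2 and limma-voom alike. With the transgene against 5xFAD they had a median log2 fold change of 0.15, with 12 of 13 above zero under TMM scaling and 11 of 13 under RLE and upper-quartile scaling. At an unadjusted p under 0.05 there were 2, mt-Cytb (0.16 ± 0.07) and mt-Nd4l (0.84 ± 0.38), both higher (background 22.3% in either direction). The summed level of the 13 was 43908, 38711 and 41144 CPM in 5xFAD and 43359, 44552 and 44319 CPM with the transgene, which overlap, while the nuclear-encoded members lay below. The difference between both sets was not tested. mt-Co2, mt-Co3 and mt-Atp6 stood at 102 to 169 CPM in every group mean, against 16449 to 16985 CPM for mt-Co1, and copies of mitochondrial DNA in the nuclear genome can take reads from such genes, so these values are uncertain.

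**Figure D5:**
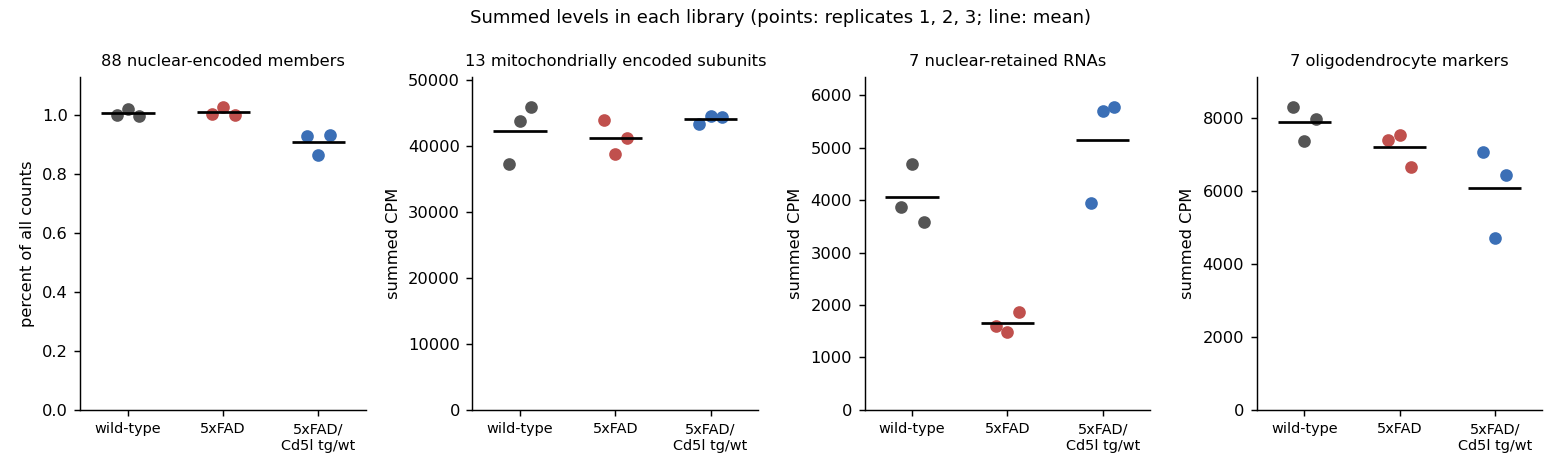
Summed level in each library: the share of all counts held by the 88 nuclear-encoded members, and the summed CPM of the mitochondrially encoded subunits, of nuclear-retained RNAs and of oligodendrocyte markers. Points are replicates and lines are means of 3. The members' share is 0.864% to 0.930% with the transgene and 0.996% to 1.02% in the other genotypes, whereas the mitochondrially encoded sum overlaps between all groups.

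Cytochrome c (Cycs) and cytochrome c1 (Cyc1), with the acyl carrier subunit Ndufab1 and Dmac2l outside the rule, gave 0 of 4 called in every comparison. Cycs was at a mean of 101 CPM in 5xFAD and 86.8 CPM with the transgene (-0.22 ± 0.07, edgeR adjusted p = 0.0916) and Cyc1 at 130 and 115 CPM (-0.18 ± 0.07). Both had an unadjusted p under 0.05, against 22.3% of all genes. Of 45 tested assembly factors, 2 passed with the transgene against 5xFAD and 0 in the other comparisons. At an unadjusted p under 0.05 there were 4 in 5xFAD against wild-type (3 higher, 1 lower). With the transgene there were 6 against 5xFAD (2 higher, 4 lower) and 6 against wild-type (all lower). In either direction these shares are near or below those of all genes, of which 6.23% were called with the transgene against 5xFAD. Such a p was found in 16.3%, 22.3% and 12.4% of all genes in these 3 comparisons, in the same order. Against wild-type, where all 6 factors were lower, the background of lower genes was 5.58%. Cox17, a copper chaperone for complex IV, rose from 3.50 to 6.67 CPM (0.94 ± 0.22, edgeR adjusted p = 0.0259), and Coa6, which also serves copper delivery to complex IV, fell from 15.1 to 9.75 CPM (-0.63 ± 0.15, edgeR adjusted p = 0.0305). The median of the 45 was -0.10, and 30 were negative.

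The 18 enzymes of the tricarboxylic acid cycle and pyruvate dehydrogenase were called in 0 cases in each comparison by edgeR, DESeq2 and limma-voom. With the transgene against 5xFAD, 13 were negative, the median was -0.08 and 5 were lower at an unadjusted p under 0.05. The background was 8.01% lower, or 22.3% in either direction. Suclg1, a subunit of succinyl-CoA ligase, was at -0.25 ± 0.08 and Pdhx at -0.21 ± 0.08. Among 14 regulators of mitochondrial biogenesis edgeR called 0 in every comparison, with 3, 2 and 2 at an unadjusted p under 0.05. In all genes 16.3%, 22.3% and 12.4% had such a p in either direction, so these counts are near that background. With the transgene against 5xFAD, the 2 were 1 higher and 1 lower, and the 14 log2 fold changes ran from -0.25 to 0.22. In the other comparisons they were all lower (background 10.7% lower in 5xFAD and 5.58% lower with the transgene, both against wild-type). The nuclear receptor gene Esrra, known to activate genes of oxidative metabolism, had a mean of 60.3 CPM in wild-type, 56.3 CPM in 5xFAD and 47.4 CPM with the transgene. Its log2 fold change was -0.25 ± 0.08 against 5xFAD and -0.35 ± 0.08 against wild-type (edgeR adjusted p = 0.0881 and 0.0514), and in the second comparison DESeq2 called 1 of the 14 regulators.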

How the data were processed

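The authors deposited 1 table of read counts per gene for 9 libraries, with identifiers, symbols, biotypes, coordinates and gene lengths. Per the submitters' processing notes the genome build is GRCm39. Not given in the sources used here: aligner, counter, handling of multi-mapping reads, strandedness. Genes were kept by filterByExpr (minimum count 10, minimum total 15), counts were scaled by TMM, and a quasi-likelihood model of all 9 libraries with 3 genotype means was fitted in R 4.3.3 (limma 3.58.1, edgeR 4.0.16), with Benjamini-Hochberg adjustment over 17575 genes and calls at an adjusted p under 0.05. The SE is the log2 fold change over the square root of F. CPM use scaled library sizes, and FPKM divide by the deposited gene length. Alternatives included DESeq2 1.42.0. The fit was tested on simulated data. The members and lists were chosen with earlier results of these data known. Named were called members, the 8 members with the smallest p per comparison, isoform families, the highest and lowest member of each complex, members that did not overlap in either 5xFAD comparison, and untested members. Some genes that this rule names are not reported here. Figures used matplotlib 3.10.9.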

Additional observations from a re-analysis of the deposited data

How the results depend on the processing

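Members called in 5xFAD/Cd5l tg/wt against 5xFAD, 6 in the fit of all 9 libraries, numbered 15 without the filter, 11 with a filter of 1 CPM in 3 libraries, 17 with DESeq2, 13 with offsets on GC content, 2 with offsets on gene length, 22 at an adjusted p under 0.1 and 1 at 0.01, and 0 to 12 when 1 library was left out. In the other comparisons they were 0, except 1 without the filter in each and, against wild-type, 1 with DESeq2 and 0 to 1 when 1 library was left out.

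Genes called in 5xFAD against wild-type (615) numbered 1354 without the filter, 1154 without the 3 libraries that stand apart in regional markers, 958 and 197 at an adjusted p under 0.1 and 0.01, and 206 to 850 when 1 library was left out. In 5xFAD/Cd5l tg/wt against 5xFAD (1095) they numbered 2063 without the filter, 630 without those 3 libraries, 1940 and 339 at the other thresholds, and 278 to 2069 when 1 library was left out. Against wild-type (277) they numbered 1062 without the filter, 467 with DESeq2, 176 with only the 6 libraries compared, 417 and 147 at the other thresholds, and 158 to 686 when 1 library was left out. Leaving out those 3 libraries keeps 1 transgenic library, which is then assumed to vary like the others. Its choice and the GC offsets were made after seeing the data.

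The members' median in 5xFAD against wild-type, 0.03, became -0.021 with offsets on gene length, and in 5xFAD/Cd5l tg/wt against 5xFAD it moved from -0.17 to -0.11. Leaving out 1 library gave medians of 0.02 to 0.06, -0.21 to -0.13 and, against wild-type, -0.16 to -0.10. Ndufb8 in 5xFAD against wild-type changed sign without wild-type replicate 3 (-0.018) and without 5xFAD replicate 2 (-0.0036), within a range up to 0.081 over the fits without 1 library, and without the 3 libraries (-0.0077). The cause was not tested. Among 805 alternative fits of 35 results on single members (the called members, those with the smallest p, and Ndufa12), 724 kept direction and side of the threshold, 54 lost the call, 24 gained one and 3 changed sign. All 54 lost calls fell on the 6 called members, since only these could lose one, and their calls each held in 11 to 21 of 23 fits. Other members named in the text were not followed across these fits.

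Libraries with the same replicate number were no more alike than others (r of deviations -0.10 to 0.15 over 9 pairs, against -0.16 to 0.15), so the numbers were not taken as pairs. With the replicate block, 1 member and 836 genes were called in 5xFAD/Cd5l tg/wt against 5xFAD. With the block and offsets on gene length, 2 members and 681 genes were called there, and the members' median there was -0.11, while it was -0.020 for 5xFAD against wild-type. Low isoforms such as Cox8b and Cox4i2, with under 50 counts per library, allow only wide errors at this depth.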
